A study of Arabidopsis thaliana with 36 samples.

Results

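The effect of a mutant line of the light signalling factor HY5 was compared between roots and shoots of Arabidopsis thaliana seedlings grown at 21 °C. The study holds 36 RNA-seq libraries, from 3 genotypes, 2 tissues and 2 temperatures with 3 libraries per group, and 12 of them answer this question. They are the libraries of Col-0 roots, hy5 roots, Col-0 shoots and hy5 shoots at 21 °C. Col-0 is the wild-type accession and hy5 is a mutant line of the gene, whose allele is not given in the sources used here. Seedlings of both genotypes had 16 h of light and 8 h of dark, with 21 °C by day and 15 °C by night, and organs were taken 6 days after germination. The measure is a difference of differences, called the organ difference here: the log2 fold change of hy5 against Col-0 in roots minus that in shoots. A negative organ difference means that hy5 was lower, relative to Col-0, in roots than in shoots.

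HY5 is a bZIP transcription factor that accumulates in the light, binds DNA at boxes with an ACGT core and promotes light-dependent development. HYH is its close homologue. In the dark the E3 ligase COP1, with its SPA partners, marks HY5 for breakdown, and in the light B-box proteins act with it. HY5 is known to activate flavonoid and photosynthesis genes, to move from shoot to root and to promote nitrate uptake there.

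Depth ranged from 16263319 to 24006279 counted reads in the root libraries and from 17008543 to 23880472 in the shoot libraries. Levels are CPM, reads per 1000000 counted reads with TMM scaling over the 12 libraries, and they are not divided by gene length. They are compared between samples and not between genes. Genes were tested with the quasi-likelihood method of edgeR, p-values were adjusted over all genes tested (Benjamini-Hochberg), and an adjusted p under 0.05 is a call. Replicates differed by more than counting noise in every group, with chi-square per degree of freedom of 3.85 to 13.5. Col-0 shoot replicate 3 stood apart from the other Col-0 shoots, at 13.5 and 10.4, and hy5 root replicate 3 differed by 10.9 from hy5 root replicate 1. Nothing in the labels says that replicates were grown apart, so p-values measure the spread between these samples only. In bulk tissue, fewer cells of a type and less RNA per cell cannot be told apart.

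The mutated gene was read first. HY5 (AT5G11260, chr5:3593335-3595073 in TAIR10.1) stood at 39.9, 33.9 and 33.4 CPM in the Col-0 roots and at 9.23, 9.35 and 8.37 CPM in the hy5 roots. In shoots it stood at 12.6, 9.66 and 7.42 CPM in Col-0 and at 9.15, 10.3 and 9.77 CPM in hy5. The root groups lay apart and the shoot groups overlapped, so the level of this transcript does not check the shoot label. The root log2 fold change was -1.99 (SE 0.13, adjusted p = 2.28e-08), the shoot value -0.03 (SE 0.16, adjusted p = 0.929), and the organ difference -1.95 (SE 0.20, adjusted p = 7.8e-06). HYH (AT3G17609) had the same form. Its root libraries read 24.6, 22.2 and 20.4 CPM in Col-0 against 5.25, 5.54 and 4.79 CPM in hy5. Its shoots read 36.8, 30.2 and 18.7 CPM against 31.1, 33.5 and 24.4 CPM. Its organ difference was -2.15 (SE 0.27, adjusted p = 5.74e-05). Genes that differed from Col-0 in both organs bear on the label of the shoots. MRD1 (AT1G53480) stood at 0.372, 0 and 0 CPM in Col-0 roots and at 29.6, 33.7 and 32.7 CPM in hy5 roots. Its shoots read 1.35, 0.621 and 0.754 CPM in Col-0 and 38.3, 35.9 and 34.9 CPM in hy5. In each organ the hy5 libraries were high and the groups did not overlap. Its fitted organ difference of 2.76 (adjusted p = 0.0109) rests on the few reads of Col-0 roots. It was 7.12 without Col-0 root replicate 1, and without Col-0 shoot replicate 1 it was 2.36 with an adjusted p of 0.0624.

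Of 20949 genes tested, 3714 (17.7%) had a called organ difference, 1394 (6.65%) of them higher and 2320 (11.1%) lower. An organ difference of 2-fold or more was called higher in 441 genes and lower in 904. The median over all genes tested was -0.04. Most of the called differences lay on the root side. In 2500 of the 3714 (67.3%) the hy5 effect passed in roots and not in shoots, with 864 genes that rose and 1636 that fell in roots. In 515 (13.9%) it passed in shoots only, with 283 that rose and 232 that fell. A further 216 (5.82%) passed in both organs in opposite directions, and 272 (7.32%) in the same direction by unequal amounts. In 211 (5.68%) neither organ passed alone. The root change was the larger in 2819 of the 3714. By itself the hy5 effect was called in 6759 genes (32.3%) in roots and in 2925 (14%) in shoots. Reads times TMM factor summed to 86059376 in Col-0 roots and 76735789 in hy5 roots. In shoots they summed to 50257286 in Col-0 and 44749538 in hy5, and the part of this in the counts was not tested. The shoot count fell to 1618 without hy5 shoot replicate 2 and to 1857 without hy5 shoot replicate 3.

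Calls were not confined to genes with a mean under 1 CPM in an organ. Each mean takes the Col-0 and hy5 libraries of an organ together, so a gene can pass through the genotype where it is high. Of 16860 genes with a mean of at least 1 CPM in both organs, 3335 (19.8%) were called, against 270 of 2586 (10.4%) under 1 CPM in roots and 156 of 2599 (6%) under 1 CPM in shoots. Across those 16860 genes the root and shoot effects had a Pearson correlation of 0.46. They come from separate libraries and share the scaling of 1 fit. The SD of the log2 effects was 0.70 in roots and 0.42 in shoots.

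**Figure D1:**
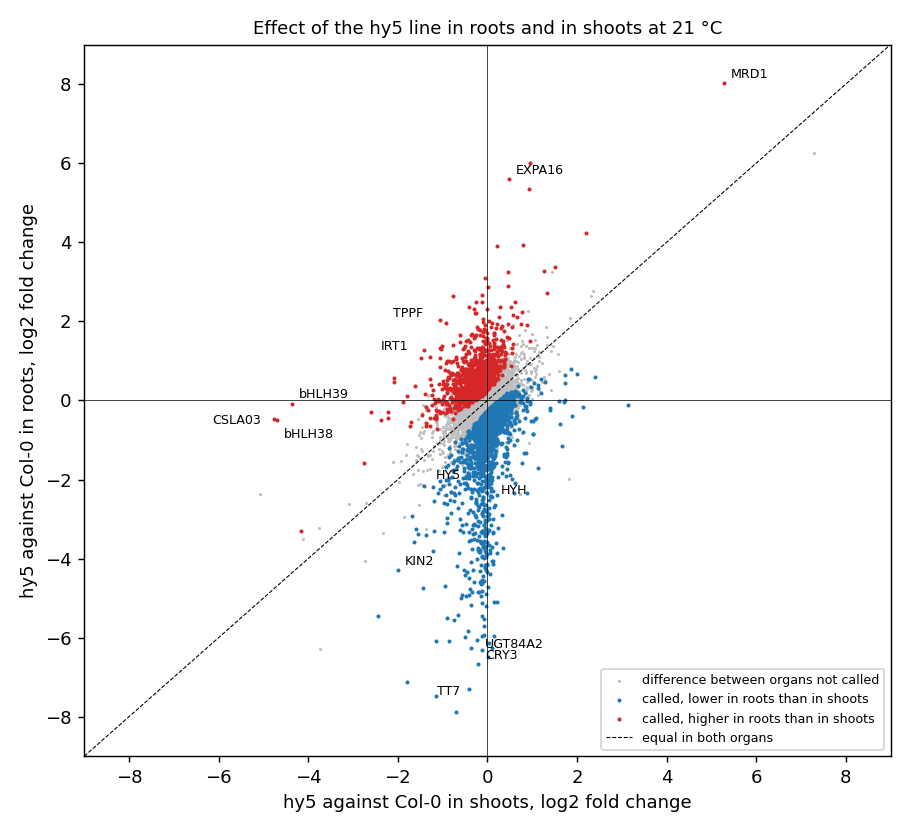
Log2 fold change of hy5 against Col-0 at 21 °C in shoots (x axis) and in roots (y axis). Each point is a gene with a mean of at least 1 CPM in both organs (16860 genes); called organ differences are coloured and the dashed line marks equal effects. Blue genes form a tail straight down from a shoot effect near 0, which holds CRY3 (-6.67 in roots, -0.20 in shoots), while CSLA03, bHLH38 and bHLH39 lie to the left, lower in shoots and near 0 in roots.

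Ranked were genes with a symbol and a mean of at least 5 CPM in each organ, over Col-0 and hy5 libraries together. A gene can thus stand far lower in a single genotype. Among them, the largest negative organ differences were those of TT7, CRY3, LHB1B2, MSRB6, UGT84A2, HCF107, TT4 and TT5. TT4 is chalcone synthase, the first enzyme of flavonoid synthesis, TT5 is chalcone isomerase and TT7 flavonoid 3'-hydroxylase. CRY3 is a cryptochrome of the DASH type found in plastids and mitochondria. LHB1B2 is an antenna protein of photosystem II, HCF107 a plastid RNA-binding protein, MSRB6 a methionine sulfoxide reductase and UGT84A2 a glucosyltransferase that makes sinapoyl glucose. CRY3 (AT5G24850) read 57.9, 58.6 and 52.3 CPM in Col-0 roots and 0.693, 0.467 and 0.465 CPM in hy5 roots. Its shoots read 48.9, 46.0 and 39.3 CPM in Col-0 and 37.9, 39.4 and 39.3 CPM in hy5. The transcript was thus near its shoot level in Col-0 roots and close to undetected in hy5 roots, while the shoot groups differed little. The root log2 fold change was -6.67 (SE 0.14), the shoot value -0.20 (SE 0.08, adjusted p = 0.122) and the organ difference -6.47 (SE 0.17, adjusted p = 1.4e-11).

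TT4 (AT5G13930) read 931, 845 and 641 CPM in Col-0 roots and 19.2, 20.9 and 11.6 CPM in hy5 roots. In shoots it read 664, 772 and 313 CPM in Col-0 and 641, 497 and 531 CPM in hy5. The root groups lay far apart and the shoot groups overlapped. Its organ difference was -5.46 (SE 0.40, adjusted p = 1.8e-07). UGT84A2 (AT3G21560) read 89.8, 93.2 and 84.5 CPM in Col-0 roots against 1.13, 1.29 and 1.02 CPM in hy5 roots. Its shoots read 109.9, 136 and 88.7 CPM against 86.1, 84.2 and 87.2 CPM. Both organs passed for this gene, by -6.26 in roots and -0.38 in shoots (adjusted p = 0.034). HCF107 (AT3G17040) read 14.4, 12.8 and 12.2 CPM in Col-0 roots and 0.292, 0.287 and 0.14 CPM in hy5 roots, with 134 to 151 CPM in all 6 shoots. TT7 fell by 7.31 on the log2 scale in roots, from 52.4, 52.5 and 34.0 CPM to 0.328, 0.395 and 0.093 CPM. LHB1B2, MSRB6 and TT5 had organ differences of -6.20, -6.16 and -5.41.

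The promoters of 3 of these genes and of CSLA03, which fell in shoots, are shown because HY5 is known to bind boxes with an ACGT core. Each is the 250 bases before the annotated start of the gene in TAIR10.1 (RefSeq), 5′ to 3′ on the gene's strand, with every ACGT in capitals. They are chr5:4488226-4488475 (plus strand) for TT4, chr3:5812781-5813030 (minus) for HCF107, chr3:7595430-7595679 (plus) for UGT84A2 and chr1:8332612-8332861 (plus) for CSLA03.
TT4: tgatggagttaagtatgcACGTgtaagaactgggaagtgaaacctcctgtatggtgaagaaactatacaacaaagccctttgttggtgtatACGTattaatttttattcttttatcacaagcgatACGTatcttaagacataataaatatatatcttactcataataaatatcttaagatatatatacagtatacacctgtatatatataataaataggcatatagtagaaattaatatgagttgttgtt
HCF107: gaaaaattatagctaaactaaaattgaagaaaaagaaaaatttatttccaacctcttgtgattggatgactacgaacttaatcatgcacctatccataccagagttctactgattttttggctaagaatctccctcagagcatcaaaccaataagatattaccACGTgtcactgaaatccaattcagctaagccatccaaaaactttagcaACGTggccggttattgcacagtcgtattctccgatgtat
UGT84A2: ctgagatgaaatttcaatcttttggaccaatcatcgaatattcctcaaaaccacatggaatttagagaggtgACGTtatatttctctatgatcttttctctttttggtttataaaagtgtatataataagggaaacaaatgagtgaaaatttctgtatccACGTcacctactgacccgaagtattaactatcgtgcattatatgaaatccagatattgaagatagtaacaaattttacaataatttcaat
CSLA03: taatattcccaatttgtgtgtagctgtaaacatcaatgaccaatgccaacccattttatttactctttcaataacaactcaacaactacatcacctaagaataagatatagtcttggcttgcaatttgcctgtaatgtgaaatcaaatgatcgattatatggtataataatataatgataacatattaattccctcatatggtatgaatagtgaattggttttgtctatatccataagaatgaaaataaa
TT4 holds 3 ACGT cores, HCF107 and UGT84A2 hold 2 each, and CSLA03 holds none. The genes shown do not stand for the others. Of the remaining genes with the largest negative organ differences, CRY3 holds 2 cores and LHB1B2 1, while TT7, MSRB6 and TT5 hold none. Of genes described below that fell in shoots, CYP81D11 holds 2 cores and bHLH39 1, and IRT1 holds none. The G-box CACGTG, which contains the core, occurs 1 time each in TT4 and HCF107 and not in UGT84A2 or CSLA03. The cores of HCF107 begin 87 and 39 bases before the start, and those of TT4 232, 159 and 125 bases.

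These letters are common. CACGTG stood in 7.22% of the 20875 promoters of tested genes that could be read, and ACGT in 44.5%; both motifs are the same on both strands. Among the genes called lower, CACGTG stood in 8.39% and ACGT in 47.3%, and among those lower by 2-fold or more in 10.3% and 51.5%. The genes called higher held CACGTG in 6.67% and ACGT in 46.7%. In the called genes whose effect passed in shoots only, the shares were 5.07% and 41.1%. The C-box GACGTC stood in 2.44% of all these promoters and in 2.25% of those of genes called lower. A match is a description of the sequence and not a binding site, and no test was made of these shares.

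The largest positive organ differences under the same rule were those of EXPA16, CSLA03, bHLH39, CYP71B13, MRD1, IRT1, CYP81D11 and FRO2. Some of them rose in hy5 roots and others fell in hy5 shoots. EXPA16 (AT3G55500), an alpha-expansin that loosens cell walls, read 0.484, 0.688 and 0.589 CPM in Col-0 roots and 39.7, 32.2 and 14.2 CPM in hy5 roots. Its shoots read 4.05, 4.69 and 4.75 CPM against 6.45, 6.65 and 5.78 CPM. All hy5 roots were above all Col-0 roots, and the shoot log2 fold change of 0.48 did not pass (adjusted p = 0.399). The organ difference was 5.11 (SE 0.54, adjusted p = 8.76e-06). CYP71B13, a cytochrome P450, rose in roots in the same way, with an organ difference of 3.14 (SE 0.34).

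CSLA03 (AT1G23480), of the cellulose synthase-like A family of mannan synthases, was the clearest case on the shoot side. It read 32.6, 35.0 and 42.3 CPM in Col-0 shoots and 1.58, 1.17 and 1.25 CPM in hy5 shoots. Its roots read 25.9, 26.1 and 26.9 CPM in Col-0 and 21.1, 17.8 and 18.04 CPM in hy5. The shoot log2 fold change was -4.76 (SE 0.15, adjusted p = 3.65e-11) and the root value -0.47 (SE 0.09, adjusted p = 0.0013). The gene was therefore lower in hy5 in both organs, by very unequal amounts, and the organ difference was 4.296 (SE 0.19). CYP81D11, another P450, read 77.1, 65.6 and 73.2 CPM in Col-0 roots and 112, 110.3 and 100.1 CPM in hy5 roots. Its shoots read 20.1, 9.31 and 18.7 CPM against 5.60, 3.83 and 2.204 CPM. It rose in roots and fell in shoots, with an organ difference of 2.66 (SE 0.34, adjusted p = 5.82e-05).

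**Figure D2:**
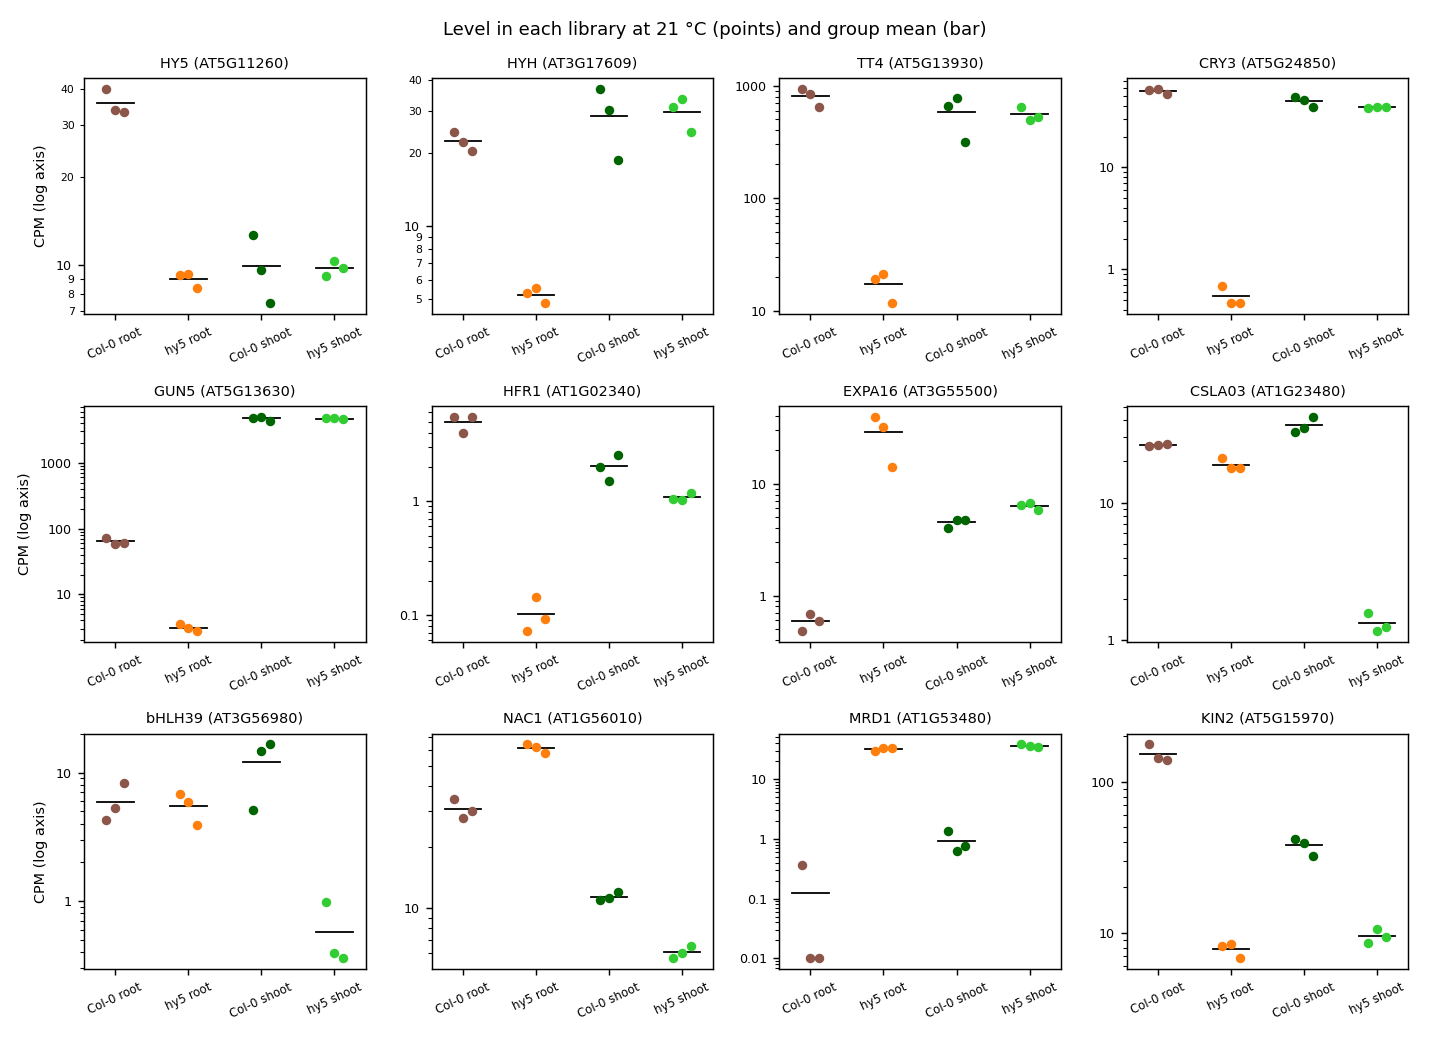
CPM (log axis) of 12 genes in each of the 12 libraries at 21 °C, with a point per library and a bar at the group mean; libraries at 0 are drawn at the lower edge of the MRD1 panel. HY5, HYH, TT4, CRY3, GUN5 and HFR1 drop from Col-0 to hy5 in roots much more than in shoots, EXPA16 rises in roots, CSLA03 and bHLH39 drop in shoots, NAC1 moves in opposite directions, and MRD1 and KIN2 move the same way in both organs.

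Genes that passed in both organs in opposite directions numbered 216, of which 121 rose in roots and fell in shoots and 95 did the reverse. Besides CYP81D11 they include IRT1, TPPF, EXPA8, NAC1, MYB55 and UGT75B1. NAC1 (AT1G56010), a transcription factor of auxin signalling in lateral roots, read 34.5, 27.9 and 30.3 CPM in Col-0 roots and 64.2, 62.5 and 57.9 CPM in hy5 roots. In shoots it read 11.02, 11.2 and 12 CPM and 5.66, 6.02 and 6.55 CPM. Neither organ's groups overlapped, and the log2 fold changes were 0.99 in roots and -0.91 in shoots (organ difference 1.90, SE 0.13, adjusted p = 1.05e-07). TPPF, a trehalose phosphate phosphatase, read 1.90, 1.28 and 1.47 CPM in Col-0 roots and 7.15, 6.00 and 5.67 CPM in hy5 roots, and changed by 2.03 in roots and -1.06 in shoots. EXPA8, an expansin, changed by 0.96 and -0.93, and UGT75B1, a glucosyltransferase, by 1.004 and -0.757. MYB55, a MYB factor, went the other way, by -1.32 in roots and 0.81 in shoots (organ difference -2.14, SE 0.23).

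Some called genes were near absent from the roots. GNC, a GATA factor that promotes greening, had 117 reads over the 3 Col-0 roots and none over the 3 hy5 roots, while shoots stood at 47.0 to 53.7 CPM. Set against 3 reads over the hy5 root group, GNC was at least 34.8-fold lower there. SSL4, a strictosidine synthase-like protein, had 47 reads and none, which is at least 14-fold lower. CGA1, the homologue of GNC, had 12 reads and none, at least 3.57-fold lower, and SCPL9, a serine carboxypeptidase-like protein, 20 reads and none, at least 5.94-fold lower. The call of CGA1 was lost without Col-0 root replicate 1 (adjusted p = 0.0508) and without hy5 root replicate 1 (0.0504). That of SCPL9 was lost without Col-0 root replicate 2 (0.0572), hy5 root replicate 1 (0.0626) or hy5 root replicate 2 (0.0621).

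Of 1082 genes that passed in both organs in the same direction, 272 had a called difference between the organs. Among those without one that have a symbol, the 4 whose smaller organ effect was largest, PYL12, GolS4, LBD26 and CYP710A4, stood under 6 CPM in every library. LBD26 fell by 4.29 in roots and 4.37 in shoots, with a 95% interval of the organ difference from -1.19 to 1.33, and GolS4 by 5.65 and 4.38, with an interval from -5.00 to 2.45. These intervals are wide, so equal effects are not shown. KIN1 and KIN2, neighbouring genes for small cold- and abscisic acid-induced proteins, show the 2 outcomes at higher levels; KIN1 was chosen after its values were seen. KIN2 read 177, 145 and 139 CPM in Col-0 roots and 8.21, 8.48 and 6.79 CPM in hy5 roots, against 41.9, 39.7 and 32.4 and 8.63, 10.6 and 9.41 CPM in shoots. It fell in both organs and by more in roots (organ difference -2.29, SE 0.18, adjusted p = 4.96e-07). KIN1 fell in roots, from 91.3 ± 11.3 to 7.97 ± 2.05 CPM, and in shoots, from 36.8 ± 4.13 to 2.15 ± 0.694 CPM (SD, n = 3, here and below). Its organ difference of 0.61 was not called (95% interval -0.03 to 1.25). They are close copies, so reads may be split between them.

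By pathway, the counts below set a list's called members beside the backgrounds of 6.65% higher and 11.1% lower among all genes. The lists were chosen with earlier results known, and no list has a test of its own. In the HY5-linked light signalling list, 13 of 22 genes were called lower and 1 higher, with a median of -1.06, or -1.12 without BBX16, which had no read in any root library. In roots 16 fell and 2 rose, and in shoots 2 fell and none rose, against backgrounds of 19.1% and 13.2% in roots and 6.73% and 7.23% in shoots. ELIP1 and ELIP2, light-induced proteins that bind chlorophyll, stood at 111 ± 13.9 and 44.7 ± 5.49 CPM in Col-0 roots and 4.03 ± 1.61 and 1.47 ± 0.152 CPM in hy5 roots. In shoots Col-0 replicate 3 was low for both genes, at 54.4 CPM for ELIP1 beside 241 and 248 CPM, which widened the shoot error. Organ differences were -3.31 (SE 0.61) for ELIP1 and -4.36 (SE 0.68) for ELIP2. SPA4, a partner of COP1, and RUP1, a repressor of the UV-B receptor UVR8, had -3.72 (SE 0.34) and -3.50 (SE 0.31).

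The early flavonoid list had 10 of 12 genes lower and none higher. Its median was -4.14, or -3.60 with MYB11 held at 3 reads in the hy5 roots, where it had none. In roots 11 of the 12 fell, and in shoots 2 fell. FLS1, flavonol synthase, read 252, 242 and 184 CPM in Col-0 roots and 3.65, 3.74 and 2.37 CPM in hy5 roots. In shoots it read 66.7, 75.7 and 41.6 CPM and 26.5, 26.1 and 29.6 CPM, so that it fell in both organs, by 6.09 and 1.16. The organ difference was -4.94 (SE 0.29, adjusted p = 1.84e-08). MYB12, the MYB factor that activates these genes, was chosen after its values were seen. In roots it went from 24.98 ± 1.59 to 0.567 ± 0.113 CPM, and in shoots from 2.42 ± 0.307 to 0.433 ± 0.172 CPM (organ difference -3.02, SE 0.40). The late anthocyanin list had none of 17 genes lower and 2 higher, LBD39 (0.79, SE 0.10) and LBD37 (0.44, SE 0.09). Both are nitrogen-responsive repressors, and both rose in roots. Of these 17 genes only 6 reached 1 CPM in both organs.

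In the phenylpropanoid list 8 of 14 genes were lower and 1 higher (median -0.46). UGT84A1, a relative of UGT84A2, went from 14.5 ± 2.83 to 0.155 ± 0.0216 CPM in roots and stood at 1.43 ± 0.685 and 1.46 ± 0.501 CPM in shoots (organ difference -6.51, SE 0.59). 4CL3, the coumarate ligase linked to flavonoids, had -4.28 (SE 0.41). PAL1, phenylalanine ammonia-lyase at the head of the pathway, fell in roots, from 722 ± 60.0 to 324 ± 32.4 CPM, while shoots stood at 363 ± 85.6 and 326 ± 40.5 CPM, which gave -1.005 (SE 0.20, adjusted p = 0.00284).

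Photosynthesis genes, which roots express weakly, formed the longest run of lower calls. In the list of photosystem, antenna and Rubisco genes, 37 of 47 were called lower and none higher, with a median of -2.82. In roots 39 fell and none rose, and in shoots 2 fell and none rose. PSAD-1, a subunit of photosystem I, read 16.8, 14.0 and 17.6 CPM in Col-0 roots and 0.401, 0.395 and 0.279 CPM in hy5 roots, beside 3019 to 3682 CPM in the shoots. Its organ difference was -5.32 (SE 0.21, adjusted p = 3.94e-10). NPQ4, the photoprotective PsbS protein, went from 26.2 ± 4.70 to 0.751 ± 0.52 CPM in roots (organ difference -5.16, SE 0.29), and LHCA3, an antenna protein of photosystem I, from 17.0 ± 3.12 to 0.744 ± 0.471 CPM (-4.50, SE 0.30). The 10 genes not called ranged from 0.177 CPM (PETE1) to 1.85 CPM (RBCS3B) in Col-0 roots. Copies of the LHCB1 and RBCS families are near identical, and reads that fit more than 1 place were not counted, so values of single copies are uncertain.

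These genes are also the shoot markers. Their summed level was 529.2 to 695.9 CPM in Col-0 roots, 57.4 to 84.24 CPM in hy5 roots and 240152 to 284223 CPM in shoots. The root level of Col-0 as a percentage of its shoot level ranged from 0.00651% (LHB1B1) to 1.15% (PSBR), with a median of 0.229%. In hy5 it ranged from 0.00556% (RBCS1B) to 0.239% (LHCB4.3), with a median of 0.0219%. The part of shoot RNA in the root results was not tested.

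The chlorophyll synthesis list had 13 of 15 tested genes lower and none higher (median -2.26). In roots 14 fell, and in shoots none changed by the test. GUN5, the subunit of magnesium chelatase that binds the porphyrin, read 71.4, 59.1 and 61.2 CPM in Col-0 roots and 3.54, 3.06 and 2.79 CPM in hy5 roots. Its shoots read 4793, 5013 and 4344 CPM in Col-0 and 4805, 4746 and 4554 CPM in hy5. The organ difference was -4.34 (SE 0.15, adjusted p = 1.41e-10). GUN4, which stimulates that chelatase, had 3.53, 2.06 and 2.76 CPM in Col-0 roots and 0, 0.108 and 0 CPM in hy5 roots. G4, chlorophyll synthase, had -4.42 (SE 0.17). Among 4 greening regulators GNC and CGA1 were lower, as above, and GLK2, a factor that activates photosynthesis genes, was higher. GLK2 went from 9.40 ± 1.102 to 15.2 ± 3.70 CPM in roots and stood at 188 ± 24.1 and 169 ± 5.99 CPM in shoots (organ difference 0.86, SE 0.20, adjusted p = 0.00729).

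**Figure D3:**
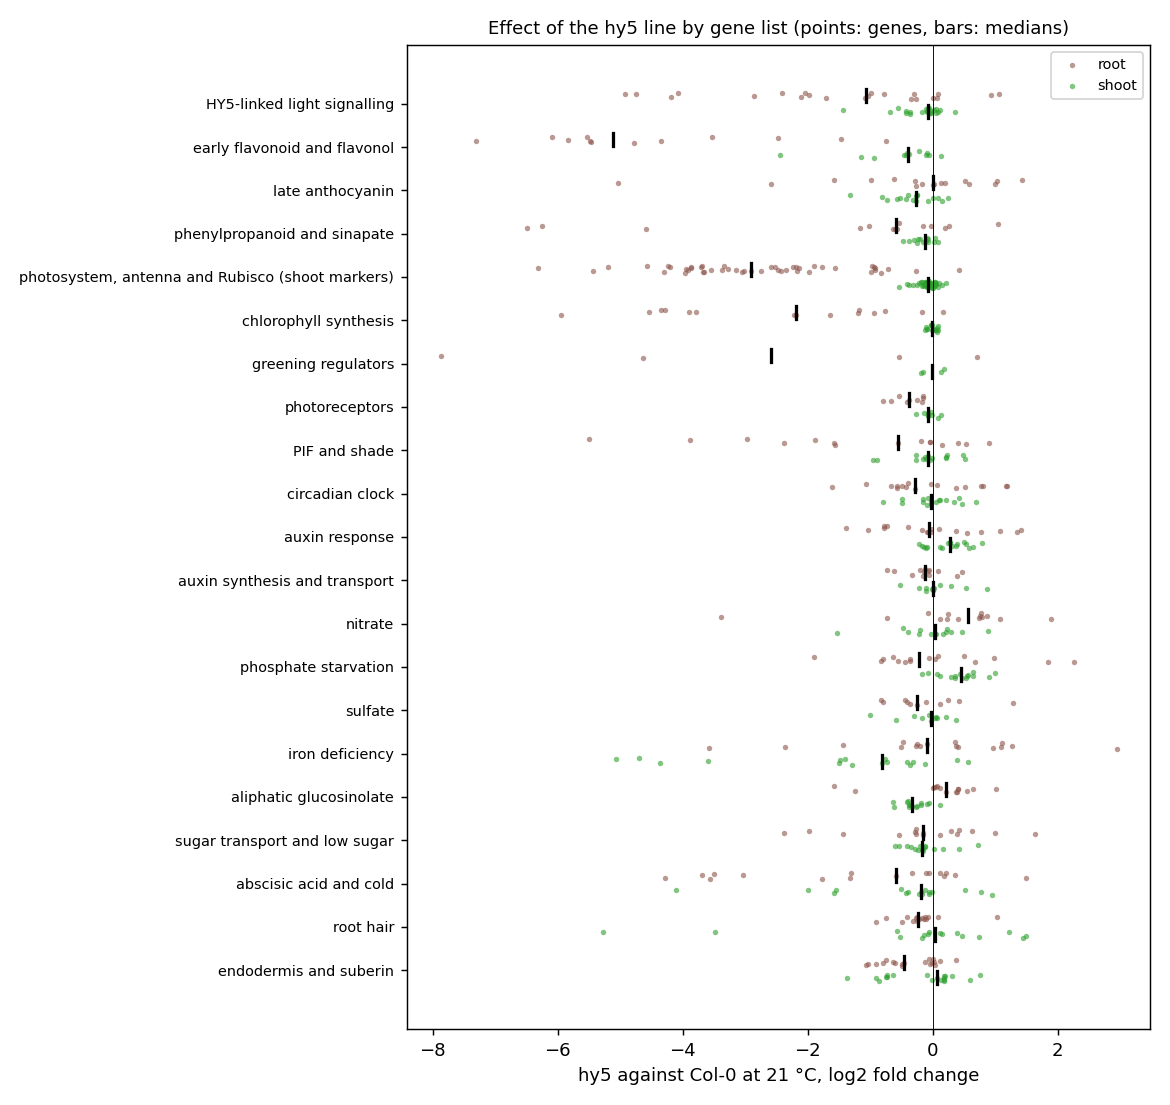
Log2 fold change of hy5 against Col-0 at 21 °C for the tested genes of 21 lists, in roots (brown) and shoots (green), with a bar at each median. Root medians lie far to the left for the early flavonoid list (-5.12), photosystem genes (-2.91) and chlorophyll synthesis (-2.19), where shoot medians are -0.39, -0.07 and 0.00; iron deficiency genes reach far to the left in shoots.

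Among 9 photoreceptors 4 were lower and none higher. PHOT1 and PHOT2, the blue light receptors of phototropism, had -0.59 (SE 0.10) and -0.53 (SE 0.09), and the phytochrome PHYD had -0.52 (SE 0.10). The remaining call, PHYB at -0.36, was lost in 8 of 21 alternative runs. In the list of PIF and shade genes 6 of 15 were lower and 1 higher. HFR1, an atypical bHLH protein that restrains PIFs, read 5.51, 4.00 and 5.48 CPM in Col-0 roots and 0.073, 0.144 and 0.093 CPM in hy5 roots. Its shoots read 1.999, 1.52 and 2.55 CPM and 1.05, 1.02 and 1.19 CPM, so it fell in both organs, and the organ difference was -4.61 (SE 0.46, adjusted p = 4.88e-06). PKS1, a phytochrome substrate, had -2.60 (SE 0.17), and the factor PIF7, at 0.863 ± 0.318 CPM in Col-0 roots, had -3.88 (SE 0.43). In the circadian clock list 2 of 17 genes were higher and 3 lower, which is near the background of all genes. They include RVE8 at 1.67 (SE 0.44), ELF3 at -0.77 (SE 0.19) and PCL1, also known as LUX, at -0.79 (SE 0.19).

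Auxin response genes had 7 of 18 members lower and 1 higher. The members moved on both sides: 5 fell and 3 rose in roots, and 3 rose and none fell in shoots. AXR3, an Aux/IAA repressor, read 110.5, 106 and 100.4 CPM in Col-0 roots and 65.0, 59.4 and 59.3 CPM in hy5 roots. In shoots it read 94.1, 93.9 and 78.6 CPM in Col-0 and 136, 113 and 98.0 CPM in hy5. It fell by 0.79 in roots and rose by 0.38 in shoots (adjusted p = 0.0236), and the organ difference was -1.17 (SE 0.14). IAA7, of the same family, had -1.29 (SE 0.15). WES1, an enzyme that conjugates auxin to amino acids, went from 17.8 ± 1.19 to 45.2 ± 10.6 CPM in roots and had 1.07 (SE 0.22). Of 13 genes of auxin synthesis and transport, 4 were lower and 1 higher. TAA1, an enzyme of auxin synthesis, and PIN4, an auxin exporter, fell in roots and had -0.64 (SE 0.11) and -0.62 (SE 0.13). The exporter EIR1, also called PIN2, rose in shoots from 3.69 ± 0.257 to 6.70 ± 2.36 CPM and had -1.01 (SE 0.22), which became -0.67 without hy5 shoot replicate 1.

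In the iron deficiency list 8 of 17 tested genes were higher and none lower, with a median of 1.77. In roots 7 rose and 2 fell, and in shoots 1 rose and 9 fell. bHLH38 and bHLH39 are the bHLH factors that pair with FIT to switch on iron uptake, and they are neighbours on chromosome 3. bHLH39 read 5.08, 14.8 and 16.6 CPM in Col-0 shoots and 0.988, 0.391 and 0.357 CPM in hy5 shoots. Its roots read 4.28, 5.28 and 8.28 CPM in Col-0 and 6.75, 5.93 and 3.90 CPM in hy5. The shoot groups lay apart, with 1 Col-0 shoot well under the other two, and the root groups overlapped. The organ difference was 4.27 (SE 0.69, adjusted p = 0.000505) for bHLH39 and 4.22 (SE 0.67) for bHLH38. IRT1, the iron transporter of the root surface, read 195, 188 and 160.2 CPM in Col-0 roots and 624, 364 and 320.5 CPM in hy5 roots. Its shoots read 11.2, 12 and 7.94 CPM and 6.98, 1.33 and 3.16 CPM. It rose by 1.27 in roots and fell by 1.404 in shoots (adjusted p = 0.035), and the organ difference was 2.67 (SE 0.48, adjusted p = 0.00112). FRO2, the ferric chelate reductase, had 2.401 (SE 0.74, adjusted p = 0.0362). Its call was lost without Col-0 root replicate 2 or 3, Col-0 shoot replicate 1 or 2, or hy5 shoot replicate 2 or 3, with adjusted p from 0.0566 to 0.0897. CYP82C4, a P450 induced without iron, had 2.57 (SE 0.66), and 3.99 without hy5 shoot replicate 1; DESeq2's Wald test did not call it (adjusted p = 0.0719).

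Summed root markers moved in the shoots with genotype: they were 3821 to 4107 CPM in Col-0 shoots and 2262 to 2741 CPM in hy5 shoots, beside 8159 to 9914 CPM in roots. Most of this sum is the beta-glucosidase PYK10, which went from 3906 ± 151 to 2492 ± 256 CPM in shoots. In single shoot libraries 0 to 3 of the 15 root markers had no read. The part of root RNA in the shoot results was not tested. Summed seed storage and oil body transcripts were 3.512 to 5.044 CPM in Col-0 shoots and 5.398 to 15.67 CPM in hy5 shoots, and under 1 CPM in every root library.

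In the nitrate list 7 of 14 tested genes were higher and 2 lower, and in roots 9 rose and 2 fell. The largest organ difference of the list in size was that of NRT2:1, called lower at -1.85. Its call was lost in 7 of 21 alternative runs. NRT1.5, which loads nitrate into the xylem, rose in roots from 267 ± 42.0 to 463 ± 25.1 CPM and fell in shoots from 55.7 ± 5.30 to 39.9 ± 7.86 CPM (organ difference 1.27, SE 0.18, adjusted p = 0.000178). TGA1, a bZIP regulator of the nitrate response, also changed in opposite directions, by 0.41 and -0.39 (organ difference 0.80, SE 0.14). Phosphate starvation genes split: 7 of 16 were lower and 3 higher. In shoots 7 of them rose and none fell, and in roots 5 rose and 5 fell. PHT1;4, a phosphate transporter, read 70.7, 62.7 and 76.5 CPM in Col-0 roots and 43.2, 37.0 and 37.8 CPM in hy5 roots. In shoots it read 36.5, 37.3 and 34.5 CPM and 55.2, 43.1 and 52.1 CPM. The direction was opposite in the organs, and the organ difference was -1.30 (SE 0.14, adjusted p = 7.54e-06). PHO1;H1, a phosphate exporter, rose in both organs, by 1.85 in roots and 0.55 in shoots. Among 11 sulfate genes 2 were higher, one of them the root transporter SULTR1;2, at 282 ± 21.2 CPM in Col-0 roots and 685 ± 129.7 CPM in hy5 roots (organ difference 1.21, SE 0.21).

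Aliphatic glucosinolate genes, which make the methionine-derived mustard oil precursors, had 7 of 15 members higher and 1 lower (median 0.47). In roots 6 rose and 1 fell, while in shoots 7 fell and none rose. MAM1, which elongates the methionine chain, read 37.2, 44.7 and 50.8 CPM in Col-0 roots and 71.5, 70.6 and 64.9 CPM in hy5 roots. Its shoots read 275, 298 and 296 CPM and 183, 171 and 211 CPM. The groups did not overlap in either organ, and the log2 fold changes of 0.64 and -0.62 gave an organ difference of 1.26 (SE 0.14, adjusted p = 1.5e-05). BCAT4, the aminotransferase of the first step, changed by 0.41 and -0.41.

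Among 16 sugar genes 3 were higher and 1 lower. DIN10, a dark-inducible gene, rose in roots from 119 ± 6.81 to 239 ± 29.1 CPM (organ difference 1.13, SE 0.20), and the hexose transporter MSS1, also known as STP13, fell from 30.9 ± 2.56 to 11.4 ± 2.88 CPM (-1.86, SE 0.23). In the list of abscisic acid and cold genes 5 of 17 were lower and 2 higher, and 7 fell in shoots. LTI78, also known as RD29A, read 109.8, 95.6 and 106 CPM in Col-0 roots and 7.96, 9.49 and 8.79 CPM in hy5 roots. In shoots it read 35.6, 42.1 and 39.4 CPM and 25.4, 26.1 and 36.5 CPM, and the organ difference was -3.17 (SE 0.17). Calls in the root tissue lists lay near the 17.7% of all genes tested. Root hair genes had 2 of 16 higher and none lower, endodermis and suberin genes 1 of 19 higher and 3 lower, and root markers 1 of 15 higher and 1 lower. In the same order, 4, 16 and 5 members of these lists reached 1 CPM in both organs. The receptor kinase GSO1, which guides the Casparian strip, had -0.63 (SE 0.12).

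The same comparison at 27 °C uses 12 other libraries of the same 4 groups and shares none with 21 °C. There 4233 of 20955 genes (20.2%) had a called organ difference. Of the 3714 genes called at 21 °C, 3699 were tested at 27 °C, and 3605 (97.5%) had the same sign. The same sign was called in 2313, which are 62.5% of those tested and 54.6% of the genes called at 27 °C, and the opposite sign in 3. Across the 3699 genes the organ differences had a Pearson correlation of 0.90, over genes chosen for their call at 21 °C. The organ difference was -5.12 at 27 °C for CRY3, -4.79 for TT4, 3.55 for EXPA16, 4.42 for CSLA03 and 2.07 for NAC1. All 37 photosystem genes and all 13 chlorophyll genes called at 21 °C were called with the same sign at 27 °C. Some other lists held less. In the clock list 5 genes called at 21 °C had the same sign and 1 was called, and in the phosphate list 10 and 5. In the sulfate list 1 had the same sign and in the root hair list 2, and none of these was called. Of the 8 iron genes 7 had the same sign and 1 was called: bHLH39 had 3.83 with an adjusted p of 0.053, and IRT1 had -0.62 (0.73).

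A test of the change itself, in 1 fit of 24 libraries, called 16 of 21354 genes (0.0749%), while 1525 had an unadjusted p under 0.05. Of the calls 5 were higher and 11 lower at 27 °C, or 7 and 9 with TMM factors within each organ. Without hy5 root replicate 3 at 27 °C, 19 were higher and 12 lower. Of the 16, 12 were called at 21 °C. The genes named next were chosen after their values were seen. PBS3, an enzyme of salicylic acid synthesis, had an organ difference of 3.67 at 21 °C and -2.97 at 27 °C (adjusted p of the change 0.0195). CYP81F2, a P450 of indole glucosinolate synthesis, had 1.86 and -1.78 (adjusted p = 0.0139), and TIR had 2.64 and -1.34. The 27 °C value of TIR was not itself called (adjusted p = 0.059). PBS3 read 0.112, 0.125 and 0.147 CPM in Col-0 roots at 21 °C and TIR at most 0.188 CPM, so their fitted values rest on few reads there. SQN, a cyclophilin, kept its sign, with -1.02 at 21 °C and -2.70 at 27 °C (adjusted p = 0.000374). At 21 °C it read 18.1, 17.5 and 17.6 CPM in Col-0 shoots and 40.2, 48.1 and 34.9 CPM in hy5 shoots. The DESeq2 Wald test called 79 genes for this change, 44 higher and 35 lower, of only 6663 to which it gave an adjusted p.

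**Figure D4:**
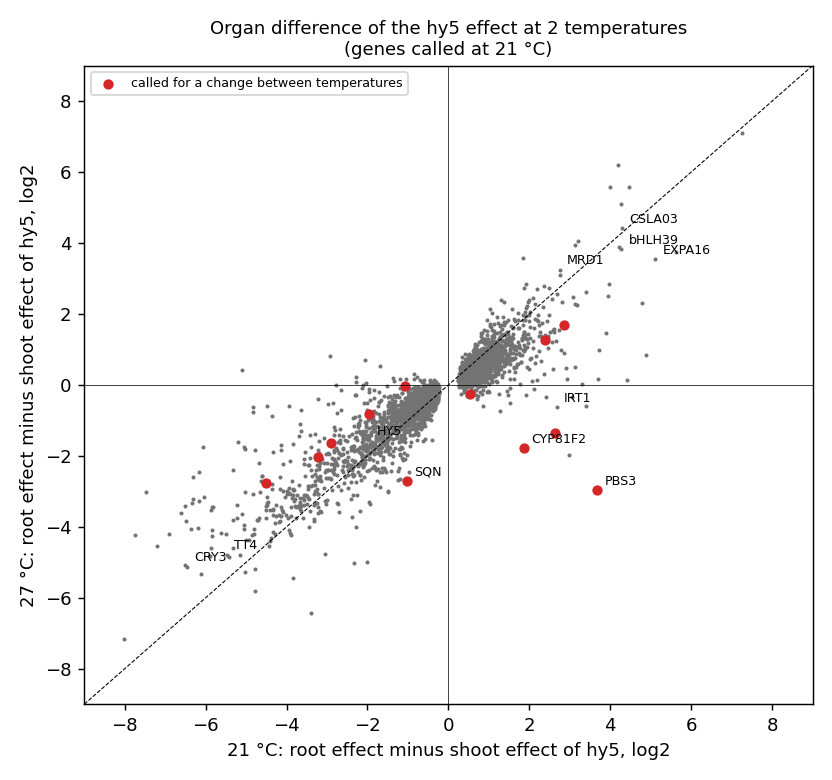
Organ difference of the hy5 effect (root log2 fold change minus shoot log2 fold change) at 21 °C (x axis) and at 27 °C (y axis) for the genes called at 21 °C and tested at both. Most points lie in the lower left and the upper right (3605 of 3699 with the same sign); red points are genes called for a change between temperatures, with PBS3 and CYP81F2 in the lower right.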

How the data were processed

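Stranded mRNA libraries were made from root or shoot RNA and read from 1 end over 50 bases, per the labels' protocols. FastQC, TopHat2, HTSeq, edgeR and the TAIR10 build are named in the submitters' processing notes, without versions or strand setting, so reads of antisense transcripts may be included. Gene values were the deposited counts, whole numbers of reads for 32833 genes. The 5 summary categories were dropped. Reads aligned at more than 1 place were 5.742% to 15.26% of a library in the Col-0 and hy5 groups at 21 °C. At 27 °C they were 27.79% in Col-0 shoot replicate 3 and 34.58% in hy5 shoot replicate 3. The other Col-0 and hy5 libraries at 27 °C had 5.005% to 10.18%. Names and coordinates come from TAIR10.1 (RefSeq), which holds 32548 of the genes and a symbol for 10803. The labels give the length of the temperature treatment in conflicting ways.

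edgeR 4.0.16 in R 4.3.3 fitted 4 group means to the 12 libraries, with TMM scaling and edgeR's standard low-count filter. The SE of a fold change is its size over the root of its F value. In simulated data of 20837 genes, 100 genes were changed 2-fold and 100 changed 4-fold, in hy5 roots only. The test of the organ difference recovered 61% of the 2-fold and 88% of the 4-fold changes, with 10 false calls. The real data have many more called genes and effects in both organs, so these shares may not carry over. A floor of 3 reads over a group stands for counting error only. Members and lists were chosen with earlier results of these data known. Genes named are HY5 and HYH, the 8 largest organ differences each way with 5 CPM in both organs, 6 with opposite directions, 4 under 1 CPM in 1 organ, 4 shared and up to 4 called per list. These CPM limits apply to the mean of an organ over both genotypes. No label pairs same-numbered libraries, and the main fit has no block. DESeq2 1.42.0, other scalings and filters, blocks and left-out libraries were tried. The promoter sequence of 1 gene is not reported here.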

Additional observations from a re-analysis of the deposited data

Results flagged for a closer look

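The hy5 effect differed between roots and shoots, by the test of the difference itself, in 3714 genes at 21 °C and in 4233 genes at 27 °C. In 216 genes at 21 °C the effect passed in both organs with opposite signs.

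The organ difference itself differed between 27 °C and 21 °C, by the test of that change, in 16 genes. In 4 of them the sign turned from a called value at 21 °C. Of these, 3 were called at 27 °C too, and TIR was not (adjusted p = 0.059). The change from 21 °C to 27 °C was -6.66 for PBS3, -3.65 for CYP81F2, -4.01 for TIR and -0.82 for AT5G41670. PBS3 and TIR had few reads in Col-0 roots at 21 °C. In all 4 genes hy5 roots stood above Col-0 roots at 21 °C. At 27 °C their root log2 fold changes were -3.29 for PBS3, -1.61 for CYP81F2, -1.18 for TIR and -0.00 for AT5G41670. Groups of 3 libraries are too small for a test of single libraries that lie apart.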

How the results depend on the processing

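The count of called organ differences at 21 °C was 3484 to 4364 over other scalings, filters, tools and blocks, and 2963 to 4178 when 1 library was left out, beside 3714. DESeq2's Wald test called 3597. With the replicate number as a block it was 3866, and with a replicate block by genotype and number 4364. Deviations of same-numbered libraries correlated by -0.18 to 0.34, over 0.1 in 9 of 18 pairs. Root and shoot of one number gave 0.13, 0.21 and 0.31 in Col-0, where every library correlated best with its own number, and 0.34, -0.03 and 0.16 in hy5, where not all did. The second block took the iron list from 8 to 12 of 17 higher. That list had 6 of 17 higher without Col-0 root replicate 2 or 3, or hy5 shoot replicate 2 or 3. It had 6 of 18 with DESeq2's Wald test, and 9 of 17 without hy5 root replicate 3 or Col-0 shoot replicate 1. The root count was 6876 with the number as a block and the shoot count 3056. At 27 °C the count was 4771 and 4607 under the blocks, beside 4233. The shoot effect was 1618 to 3361 genes when 1 library was left out, beside 2925. The change between temperatures, 16 of 21354 genes, was 8 to 31 when 1 library was left out and 37 with a replicate block by genotype and number. With DESeq2's Wald test it was 79 of the 6663 genes given an adjusted p. The cause of these shifts was not tested. Of 96 named genes with a called organ difference, 78 kept the call under every alternative run for them (20 or 21), 18 lost it under at least 1 and none changed sign. The 4 named genes without a call stayed so. For the change between temperatures the majority direction was not stable. TMM factors within each organ moved the share of higher calls among the 16 genes from 31.2% to 43.8%. It was 61.3% of 31 genes without hy5 root replicate 3 at 27 °C. With DESeq2's Wald test it was 55.7% of 79, and with all 36 libraries 52.9% of 17. For the other counts no scaling moved this share by over 10 percentage points, and none moved the median of all genes by over 0.1. For the shoot effect, too, the majority direction was not stable. Its share of higher calls was 51.8%, but 44.2% with DESeq2 size factors, 45.4% with photosystem genes left out and 53.2% with TMM factors within each organ. It was 40.3% to 46.7% without 1 of the shoot libraries. Under 1 CPM a gene has few reads, and differences there are the least certain.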
